A study of Oryza sativa Indica Group with 226 samples.

Results

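The 110 rice lines of this comparison were split by a single transcript of chromosome 2, the transcript of the gene LOC4328727, whose level differs more between their parents than that of any other probe set that met the rule. The lines are recombinant inbred lines (RILs), inbred progeny of a cross between the indica varieties Minghui 63 and Zhenshan 97, and all were measured as whole shoots of untreated seedlings grown in the dark until 72 h after germination. The split placed 63 lines (126 arrays) on the Minghui 63 side and 47 lines (94 arrays) on the Zhenshan 97 side, which together are 220 of the 226 arrays of the series. The other 6 arrays are the parents, 3 of Minghui 63 and 3 of Zhenshan 97, which served to find the marker and to place the cut. Each line was inbred from 1 cross and measured with 2 Affymetrix Rice Genome arrays, replicate 1 and replicate 2.

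An inbred line carries a fixed mosaic of its parents' chromosomes, so genes that lie close together on a chromosome usually come from the same parent, and genes far apart or on different chromosomes come from either parent independently. A transcript whose level depends on a variant in or beside its own gene therefore follows the parental origin of that stretch, which is called local or cis-type variation. A transcript that follows a stretch elsewhere in the genome shows distant or trans-type variation. A transcript that is near background in 1 parent can thus serve as a marker for the parental origin of its region, and the comparison of all other transcripts between the line groups shows how far along chromosome 2, and how far beyond it, levels differ with that marker.

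The marker was taken from the probe sets annotated to 1 gene of chromosome 2 with a log2 level averaging 5 or more over all arrays and a correlation of at least 0.8 between the replicate 1 and replicate 2 arrays of the 110 lines. These conditions were met by 16 probe sets, among which the marker had the largest parental difference. Its gene is number 898 of the 3974 genes in the reference table's order of chromosome 2, and the table gives it no name from which a function could be stated. The reference order is that of a japonica assembly, and the gene order of the indica parents was not examined. The values below describe the marker, and no test was made on it because it chose the groups. In whole shoots, fewer cells of a type and less RNA per cell cannot be told apart.

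The marker measured 3.44, 3.97 and 3.24 on the log2 scale in the 3 Minghui 63 arrays, against 12.59, 12.76 and 12.88 in the 3 Zhenshan 97 arrays. The means were 3.55 ± 0.38 in Minghui 63 and 12.74 ± 0.15 in Zhenshan 97 (SD, n = 3 each), a difference of -9.19, and the cut between the line groups was their midpoint of 8.15. The 17 tag control probe sets of the array averaged between 2.55 and 4.63 over the parents, so the Minghui 63 level lay within the range of probe sets without a rice target. In the lines, the mean of the 2 arrays was lowest at 3.56, had a median of 4.29 and was highest at 6.91 on the Minghui 63 side. On the Zhenshan 97 side it was lowest at 12.14, had a median of 12.54 and was highest at 12.86. No line mean lay in the gap of 5.23 between the line RIL145, the highest on the Minghui 63 side, and the lowest line on the Zhenshan 97 side, and the split is the same for any cut inside that gap. The SD between line means was 0.835 on the Minghui 63 side and 0.163 on the Zhenshan 97 side.

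**Figure D1:**
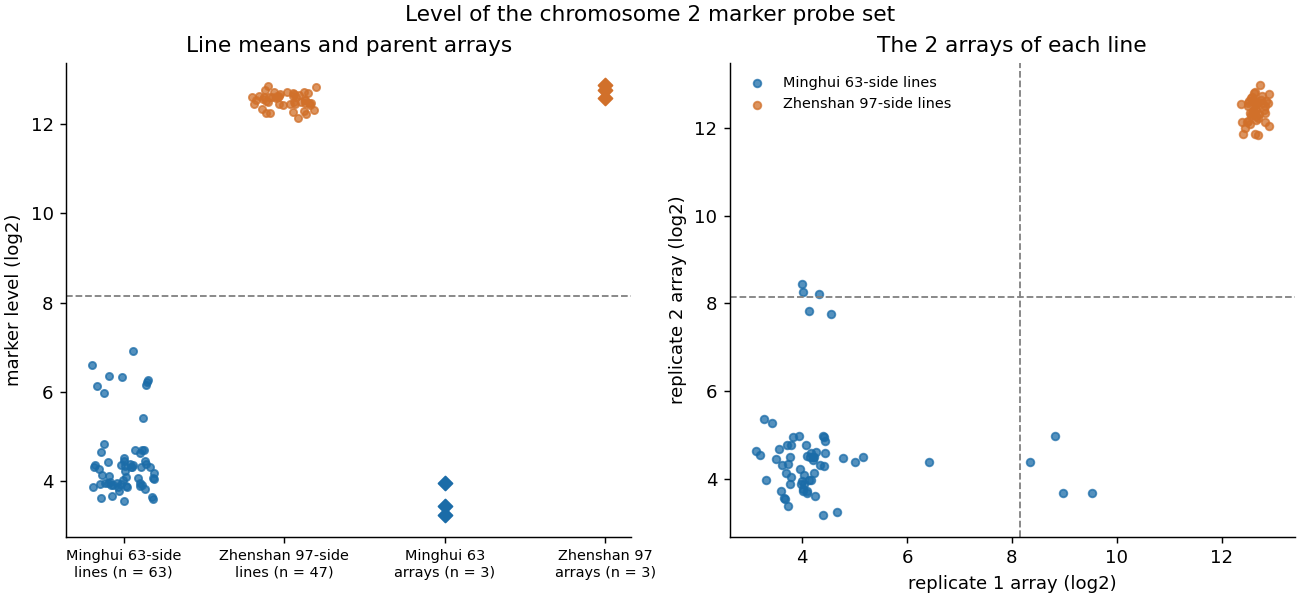
Level of the marker probe set on the log2 scale. Left, line means (points) of the 63 Minghui 63-side and 47 Zhenshan 97-side lines and the 3 arrays of each parent (diamonds); right, the replicate 1 array (horizontal axis) against the replicate 2 array (vertical axis) of each line, with the cut of 8.15 dashed. The line groups are separated by 5.23 on the left, and on the right 10 Minghui 63-side lines had 1 of their 2 arrays at an intermediate level.

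The wider spread on the Minghui 63 side came with 10 lines in which 1 of the 2 arrays lay in the central part of the parental range, between 5.85 and 10.45, while the other array was at 4.98 or below. RIL169 measured 9.52 on its replicate 1 array and 3.68 on its replicate 2 array, and RIL087 measured 3.99 and 8.44. No Zhenshan 97-side line had such an array. The top probe sets of the other 11 chromosomes, chosen by the same rule, lay in the same part of their own parental range for a median of 2 of 11 on those 10 arrays (mean 1.8) and for a median of 1 of 11 on the other 210 line arrays (mean 1.14). What these lines share was not tested. Without these 10 lines, a setting added after the values were seen, 38 probe sets of chromosome 2 passed the test used below, against 37 with all lines.

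Line labels were checked with 433 probe sets that had a mean of at least 5 and a correlation of at least 0.8 between replicates over the lines. That choice used the labels, so it favours a match between the 2 arrays of a line. These probe sets showed 11 pairs of near-identical lines. The line means of the 2 lines of a pair correlated between 0.819 and 0.985, where the next pair of lines reached 0.608. Each of the 11 pairs lay on 1 side of the marker. In 5 lines the replicate 1 array matched the replicate 2 array of another line best, and all 5 belonged to such a pair. Whether the best match was the partner itself was not checked. Near-identical lines are not independent, so the counts below are also given with 1 line of each pair left out.

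Other probe sets of LOC4328727 put every line mean on the same side as the marker did. A second probe set measured 2.45 at the lowest, 2.98 at the median and 4.46 at the highest on the Minghui 63 side, against 8.27, 8.99 and 9.92 on the Zhenshan 97 side. Another one measured 2.80, 3.13 and 4.93 on the Minghui 63 side, against 8.11, 8.92 and 9.90 on the Zhenshan 97 side. Neither overlapped between the groups, and the differences in line means were -5.93 and -5.73. Both are annotated to the marker's own gene, so these values describe the split. On each of the 10 intermediate arrays both were higher than on the other array of the same line, but by unlike amounts. On the replicate 1 array of RIL169, where the marker was at 9.52, they measured 6.38 and 6.43, against 2.53 and 3.43 on its replicate 2 array. On the replicate 2 array of RIL005, where the marker was at 7.82, they measured 3.54 and 3.23, against 2.92 and 2.98 on its replicate 1 array. A further probe set of the gene had a mean of 2.97 over all arrays, under the limit for testing, and differed by -2.77.

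The remaining probe sets were compared between the line groups as Minghui 63 side minus Zhenshan 97 side, on the 110 line means, with limma and Benjamini-Hochberg adjustment over all 27734 tested probe sets of 14621 annotated genes. At an adjusted p under 0.05, 69 probe sets passed (0.249%), 32 of them higher and 37 lower on the Minghui 63 side (0.115% and 0.133%). A log2 difference of at least 1 was reached by 10 of the 69 (0.0361%). Of the probe sets annotated to chromosome 2, 37 of 2017 passed (1.83%), 16 higher and 21 lower on the Minghui 63 side. On the other chromosomes together, 2 of 14975 passed (0.0134%), and of the probe sets without a single annotated gene, 30 of 10742 passed (0.279%). At an unadjusted p under 0.05 the shares were 7.39% on chromosome 2 and 2.40% on the other chromosomes. Only the 2 marker-gene probe sets had groups that did not overlap (0.00721%). Without the marker gene, 35 probe sets of 34 genes passed on chromosome 2, 16 higher and 19 lower. With 1 line of each near-identical pair left out, 60 probe sets passed in all, 58 of them among the 69, and 30 on chromosome 2. The counts depended on the arrays and on the filter: on chromosome 2, 20 passed with the replicate 1 arrays left out and 39 with the replicate 2 arrays left out, and 65 passed when no minimum was set on the mean level.

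The 35 probe sets lay between 246 genes before and 1102 genes after the marker in the reference order, in 2 separate stretches. The near stretch reached from 246 genes before to 376 genes after the marker and held 26 probe sets of 25 genes, 10 higher and 16 lower on the Minghui 63 side, with a median absolute log2 difference of 0.34. The far stretch reached from 837 to 1102 genes after the marker and held 9 probe sets, 6 higher and 3 lower, also with a median absolute difference of 0.34. None of the 155 tested probe sets between the stretches passed, and neither did any of the 347 before the near stretch or the 1156 after the far one. Over all tested probe sets the median absolute difference was 0.030. Both medians of 0.34 were taken over passing probe sets only, so they are larger by selection. Up to 400 genes from the marker on either side, medians over all tested probe sets by distance lay between 0.029 and 0.075. By distance, 6 of 32 probe sets passed at over 100 and up to 200 genes after the marker (18.8%). At over 200 and up to 400 genes after it 10 of 80 passed (12.5%), and at over 400 and up to 800 genes 0 of 135. Before the marker, 2 of 51 passed at over 100 and up to 200 genes (3.92%). At over 200 and up to 400 genes before it, 3 of 108 passed (2.78%). Whether these shares differ was not tested. Next to the marker few were tested, with 1 of 14 passing at up to 50 genes after it (7.14%) and 0 of 6 at up to 50 genes before it.

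**Figure D2:**
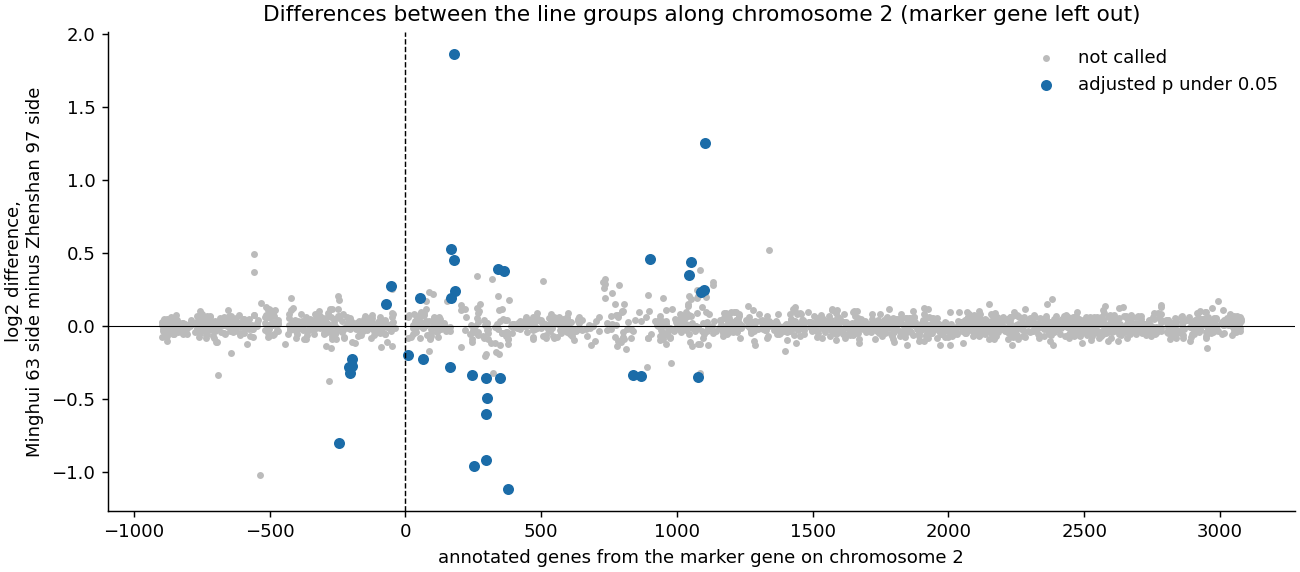
Log2 difference between the line groups, Minghui 63 side minus Zhenshan 97 side (vertical axis), for each tested probe set of chromosome 2 against the number of annotated genes between its gene and the marker gene (horizontal axis), with the marker gene left out. Blue points passed an adjusted p under 0.05 and form a stretch from 246 genes before to 376 after the marker and another from 837 to 1102 after it, with grey points (not passing) in between.

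The largest difference on chromosome 2 outside the marker gene was in LOC4328867, 177 genes after the marker. It measured 5.34 at the lowest, 8.10 at the median and 8.56 at the highest on the Minghui 63 side, against 4.96, 5.67 and 8.66 on the Zhenshan 97 side, a log2 difference of 1.86 (SE 0.164, adjusted p = 1.14e-16, limma). The groups overlapped because lines of either group fell into a high or a low cluster, and 97 of 110 lines were on the parental side that the marker gave them. The parents differed by 3.32 in the same direction.

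LOC4329022, 376 genes after the marker, was lower on the Minghui 63 side. It measured 5.58, 6.40 and 8.69 there, against 6.0, 8.23 and 8.76 on the Zhenshan 97 side (lowest, median and highest), a difference of -1.11 (SE 0.161, adjusted p = 4.62e-07). It too fell into 2 clusters of lines, and 87 of 110 lines matched the marker. LOC4328921, 253 genes after the marker, was lower by a log2 difference of -0.96 (SE 0.120, adjusted p = 3.77e-09), and LOC4328518, 246 genes before it and the farthest passing gene on that side, differed by -0.80.

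Some neighbouring genes differed in the same direction and others did not. The adjacent genes LOC4328957, LOC4328958 and LOC4328959, 297 to 299 genes after the marker, were all lower on the Minghui 63 side. LOC4328957 measured 4.69, 5.24 and 7.29 there, against 4.51, 6.56 and 7.25 on the Zhenshan 97 side, a difference of -0.92 (SE 0.113, adjusted p = 1.64e-09). LOC4328958 differed by -0.60 on 1 probe set and by -0.36 on another, and LOC4328959 by -0.49. The adjacent genes LOC4328859, LOC4328860 and LOC4328861, 165 to 167 genes after the marker, differed by -0.28, 0.53 and 0.19, the first lower and the others higher on the Minghui 63 side.

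In the far stretch, LOC4329572, 1102 genes after the marker, had the largest difference. It measured 3.03, 6.94 and 7.82 on the Minghui 63 side, against 3.11, 4.29 and 7.93 on the Zhenshan 97 side, a difference of 1.26 (SE 0.292, adjusted p = 0.0188), with the groups spanning nearly the same range. Its neighbour LOC4329571 differed by 0.25, and LOC4329527, 1052 genes after the marker, by 0.44.

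**Figure D3:**
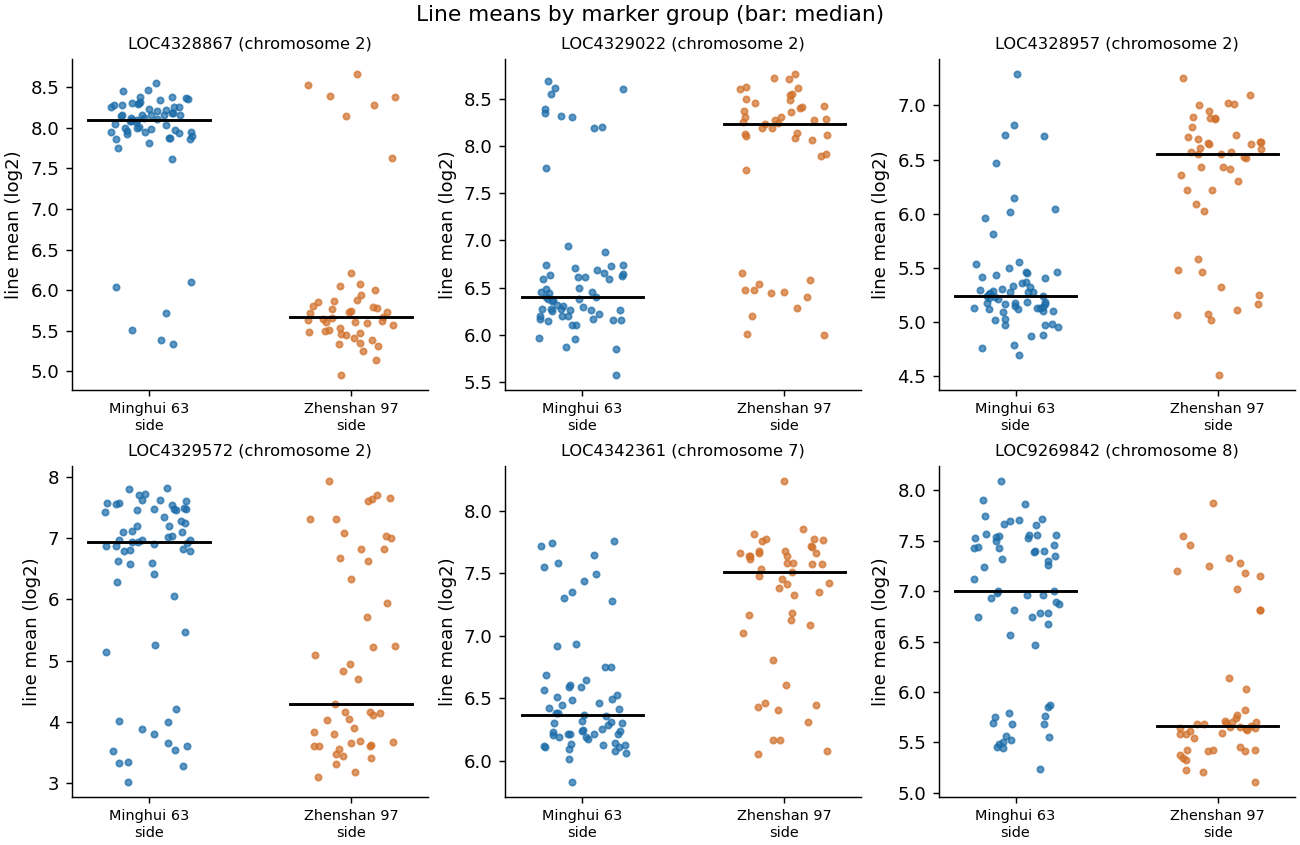
Line means on the log2 scale (points, bar at the median) of 6 genes in the 63 Minghui 63-side and 47 Zhenshan 97-side lines. All 6 have lines at high and at low levels in either group, so the groups overlap in each gene and differ in how many lines lie high or low.

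Only 4 passing genes of chromosome 2 have a usable name, and their differences were small. CPS1, the ent-copalyl diphosphate synthase of gibberellin synthesis, lay 363 genes after the marker and was higher on the Minghui 63 side, with a mean of 6.71 against 6.33 on the Zhenshan 97 side (difference 0.38, SE 0.0877, adjusted p = 0.018). CIN1, a cell wall invertase that splits sucrose outside the cell, lay 1088 genes after the marker and averaged 10.62 on the Minghui 63 side and 10.39 on the Zhenshan 97 side (difference 0.23, adjusted p = 0.0259). CIN1 was also higher in Minghui 63 than in Zhenshan 97, by 0.60.

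ABCG39, an ABC transporter gene 53 genes before the marker, was higher by 0.28 on 1 probe set (adjusted p = 0.0042), while its other probe set gave -0.03 and did not pass. PP2A3, a catalytic subunit of protein phosphatase 2A, lay 10 genes after the marker and was lower by a log2 difference of -0.20 on 1 probe set (adjusted p = 0.00789), while the other gave -0.08 and did not pass. Between the parents these same probe sets of ABCG39 and PP2A3 differed by -0.003 and 0.03, opposite in sign to the lines, and neither parental difference passed. All 4 passed in the replicate 1 arrays when lines were split by replicate 2, and none passed in the replicate 2 arrays. In the replicate 2 arrays alone CPS1 differed by 0.37, CIN1 by 0.17, ABCG39 by 0.21 and PP2A3 by -0.16, with the same sign but an adjusted p of 0.958 each.

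The other nearest named genes did not pass. They were SPX2, a phosphate signalling gene, with a difference of -0.14, the metal transporter gene HMA4 with 0.05, OEP75, the import channel of the plastid envelope, with 0.02, SAP4 with -0.02, AOS4, an allene oxide synthase of jasmonate synthesis, with -0.07, CASPL2D1 with -0.05 and the phosphatase gene PP2C12 with -0.08. The Aux/IAA repressor gene IAA7 came nearest to the threshold, at -0.17 (adjusted p = 0.0677). IAA7 passed in 6 of 21 other settings, among them the replicate 1 arrays alone (adjusted p = 0.00226), and reached -0.09 in the replicate 2 arrays alone (adjusted p = 0.958). The 21 include the settings without 1 parent array, which repeated the main fit.

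None of 8 genes of chromosome 2 on the list of rice trait genes passed. They were the grain width gene GW2 (difference -0.02), GLN1-1, a cytosolic glutamine synthetase (0.05), the sucrose transporter genes SUT4 and SUT5 (-0.04 and -0.07), the aquaporin genes PIP1;1 and PIP1;3 (0.02 and -0.03), SPL4 (0.07) and GL2 (-0.01). Over 21 lists of named genes, from hormones and defence to metal uptake and photosynthesis, 1 of 670 members passed (0.149%, against 0.249% of all tested probe sets), which was CPS1. It was also 1 of the 86 members on chromosome 2 (against 37 of 2017 tested probe sets there, 1.83%). The lists' median differences lay between -0.06 and 0.10, against 0.001 over all tested probe sets. CPS1 was the passing member of the diterpenoid list, and the other 4 list members on chromosome 2, CYP71Z6, KS6, CYP76M8 and CYP76M6, which lie between 1298 and 1309 genes after the marker, differed by 0.09, 0.04, -0.02 and -0.01 without passing.

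Shoots were compared with lists of other organs. The summed linear level of 5 root genes had a median of 1267 on the Minghui 63 side and 1240 on the Zhenshan 97 side, and 7 seed storage and aleurone genes had medians of 9710 and 9703. The groups overlapped over most of their range in both sums, and no member of either list passed.

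The parents were compared in the same way on their own 6 arrays. Between Minghui 63 and Zhenshan 97, 2915 of 27734 probe sets passed (10.5%), and on chromosome 2 it was 229 of 2017 (11.4%), 111 higher and 118 lower in Minghui 63. The parent arrays set the cut but otherwise did not enter the line comparison. Of the 35 probe sets of chromosome 2 that passed between the line groups, 29 had the same sign between the parents and 6 the opposite sign. All 15 that also passed between the parents had the same sign. Over those 15, the median ratio of the line difference to the parental difference was 0.449. The parental count rests on 3 arrays a side: it was 75 and 65 on chromosome 2 without Minghui 63 replicate 1 and 2, and 99 without Zhenshan 97 replicate 1 and also without replicate 2.

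Large parental differences on chromosome 2 were followed into the line groups by distance. Of 17 probe sets within 400 genes of the marker gene that passed between the parents with a log2 difference of at least 1 (5.53% of all tested probe sets did), 7 also passed between the line groups. Of 57 such probe sets farther away, 2 passed. Close to the marker, too, a large parental difference was thus not always found between the line groups. Whether the shares differ was not tested.

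**Figure D4:**
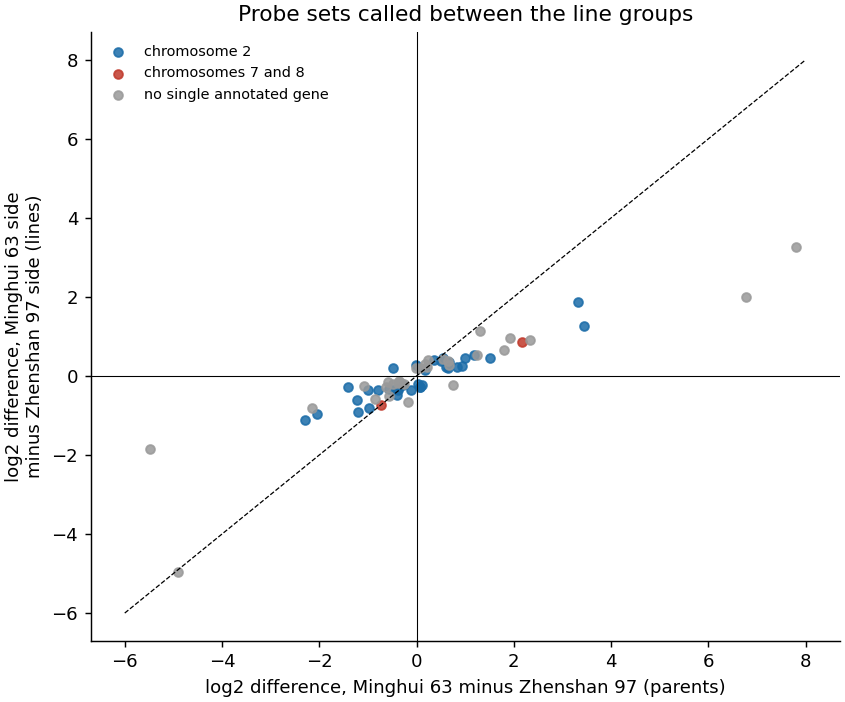
Log2 difference between the line groups (vertical axis, Minghui 63 side minus Zhenshan 97 side) against the parental difference (horizontal axis, Minghui 63 minus Zhenshan 97) for the 67 passing probe sets outside the marker gene. On chromosome 2 (blue) 29 of 35 share the sign of the parental difference, and the median ratio of the line difference to the parental one was 0.449 over the 15 that also passed between the parents; the dashed line marks equal differences.

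The other probe sets that met the marker rule were used to follow the lines' assignment along the chromosome, counted as the lines that lie on the same parental side as at the marker. The count was 97 of 110 at LOC4328867, 177 genes after the marker, and 87 at LOC4329022, 376 genes after it. All 13 lines on the other side at LOC4328867, 6 of them from the Minghui 63 side of the marker and 7 from the Zhenshan 97 side, were also on the other side at LOC4329022, where 10 further lines had joined them. Before the marker the count was 68 at a position of -535 genes (LOC4328273), 63 at -692 and 51 at -828. At -828 the cut put 18 of 110 lines on the Minghui 63 side, against 63 at the marker.

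Beyond LOC4329022 the count was not a steady decline. It was 62 at NAAT1, a nicotianamine aminotransferase gene of iron-chelator synthesis 505 genes after the marker, and 54 at LOC4329150, 547 genes after it. It was 65 at 866 genes, 73 at 901 genes and 76 at 1102 genes, then 52, 58 and 52 at 1340, 2093 and 2747 genes. These counts rest on each probe set's own level and its own parental midpoint. The cut put 36 of 110 lines on the Minghui 63 side at 866 genes and 83 at 1340 genes. Where a cut divides the lines so unevenly, the count is limited by the cut and cannot show the parental origin of the position. At NAAT1, 109 of 110 lines lay on the Minghui 63 side, so its level did not divide the lines, although the parents differed by 3.07. The line groups differed in NAAT1 by 0.31 (SE 0.237, adjusted p = 0.9998).

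LOC4329150 placed between 44 and 61 lines on the same side as each other probe set of the rule. LOC4329759, 1340 genes after the marker, likewise placed between 37 and 58 on the same side as each of the others except NAAT1. With NAAT1 it shared 82. The cuts put 109 of 110 lines on the Minghui 63 side at NAAT1 and 83 at LOC4329759. A count of this size follows from such cuts, so it cannot show whether NAAT1 and LOC4329759 vary together. Across LOC4329150, LOC4329022 placed 92 lines on the same side as LOC4329414, 901 genes after the marker, and 89 on the same side as LOC4329572. Those counts are higher than the 73 and 76 between these genes and the marker. The top probe sets of the other 11 chromosomes placed between 41 and 58 lines on the marker's side, with a median of 53. The tiller angle gene TAC1, the top probe set of chromosome 9, was at 53.

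**Figure D5:**
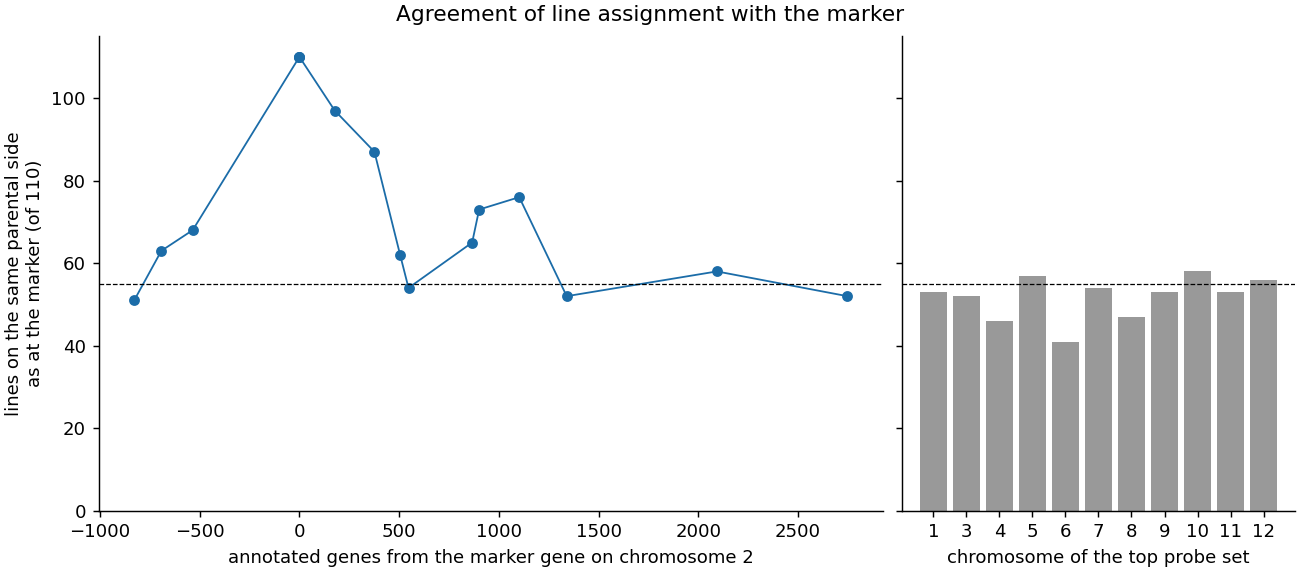
Number of the 110 lines on the same parental side as at the marker, for the probe sets of chromosome 2 that met the marker rule (left, against annotated genes from the marker gene) and for the top probe set of each other chromosome (right); the dashed line is at 55 lines. The count was 97 and 87 at 177 and 376 genes after the marker, 76 at 1102 genes, and between 41 and 58 on the other chromosomes. Counts use each probe set's own parental midpoint, which at some positions of chromosome 2 divided the lines unevenly.

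Outside chromosome 2, LOC4342361 of chromosome 7 and LOC9269842 of chromosome 8 passed. LOC4342361 measured 5.84 at the lowest, 6.37 at the median and 7.76 at the highest on the Minghui 63 side, against 6.06, 7.51 and 8.24 on the Zhenshan 97 side, a difference of -0.73 (SE 0.101, adjusted p = 1.62e-07). The parents differed by -0.74. By its own parental midpoint, LOC4342361 placed 107 of 110 lines on the same side as LOC4329022, which lies 376 genes after the marker on chromosome 2, 99 on the same side as LOC4328867 and 86 on that of the marker. Its lines thus divided almost as those of a chromosome 2 gene did. These counts were made after the line values had been seen. Its 2 other tested probe sets gave -0.09 and 0.04 and did not pass. None of the 58 tested probe sets within 100 genes of it on chromosome 7 passed.

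LOC9269842 measured 5.24, 7.01 and 8.09 on the Minghui 63 side, against 5.11, 5.67 and 7.88 on the Zhenshan 97 side, a difference of 0.86 (SE 0.151, adjusted p = 0.000101). The parents differed by 2.17, and none of 86 tested probe sets within 100 genes of it on chromosome 8 passed. Counted in the same way, it placed 84 of 110 lines on the same side as LOC4329414 of the far stretch, 80 as LOC4329022 and 69 as the marker. These counts depend on the cut. Its parental midpoint of 7.035 put 40 of 110 lines on the Minghui 63 side, so part of the lines at high levels fell below it. With a cut midway between the means of the line groups, which those groups themselves set, 82 lines matched the marker. Its probe set carries the _x_ mark, which Affymetrix gives to probe sets that may also read similar sequences. Both genes passed in both of the comparisons on separate arrays described below. They had been chosen on means that include those arrays, so this gives no independent support. With a minimum mean of 7 in place of 5, 0 probe sets of other chromosomes passed, and with no minimum 3 did.

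No usable name on another chromosome passed. The named genes off chromosome 2 whose line means were most correlated with the marker over the 110 lines were CRYD, a cryptochrome of the DASH type (r = -0.280), Anp32 (0.275) and ADC1, an arginine decarboxylase of polyamine synthesis (0.262). The line means share arrays and normalization with the marker, and none of the 3 passed the test.

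Among the 30 passing probe sets without a single annotated gene, 15 were higher and 15 lower on the Minghui 63 side, and 28 had the sign of the parental difference. Their place in the genome is not given by the tables used. The probe set with the largest difference among them measured 2.31, 3.03 and 8.58 on the Minghui 63 side, against 7.70, 8.44 and 9.23 on the Zhenshan 97 side, a difference of -4.95 (adjusted p = 1.21e-45) beside a parental difference of -4.90. The next largest difference of that sign was -1.85. The 2 largest differences in the other direction were 3.25 and 2.00, against parental differences of 7.80 and 6.77.

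The same contrast was then made in arrays that the split had not used. With lines split by their replicate 1 arrays and compared in their replicate 2 arrays, 33 probe sets passed (0.119%), 16 of them on chromosome 2 with the marker gene. With the replicate numbers exchanged, 75 passed (0.27%), 39 of them on chromosome 2. The 35 probe sets of chromosome 2 outside the marker gene all kept their sign in both comparisons, 14 passed in the first, 24 in the second and 10 in both. The 30 probe sets without a single gene also kept their sign in both, and 11 of them passed in both. Both sets had been chosen on means that include these arrays, so these counts give no independent support. Lines with 1 intermediate array can change sides between these splits: LOC4328727, read by the second probe set above, differed by -4.88 in the first comparison and by -6.13 in the second.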

How the data were processed

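Transcript levels of 226 shoot samples (110 lines with 2 arrays each, 2 parents with 3 each) were taken from the authors' deposited log2 values, 1 per probe set and array, which ran from 1.16 to 14.35 with array medians between 4.77 and 5.07. RMA and affy are the tools that the submitters' processing notes name, with versions not given in the sources used. RMA normalizes arrays together, so a value depends on all arrays of the series. Of 57381 probe sets, 22436 had 1 annotated gene, 95 several and 34850 none, and 123 AFFX and 64 RPTR controls were left out. Genes were named and ordered through the reference table of assembly ASM3414082v1, in which all 22436 were found by gene identifier. Its coordinates were not used, because the annotation names no build, and distance is in genes.

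The values of each replicate number were centred for each probe set, the mean over all line arrays was added back, and the 2 arrays of a line were averaged. Probe sets with a mean of at least 5 over all arrays were tested, without the marker itself. Differences between line groups, and between parents, were tested in R 4.3.3 with the functions lmFit and eBayes of limma 3.58.1, Benjamini-Hochberg adjustment over all 27734 and an adjusted p under 0.05; all adjusted p-values are from limma. The procedure was tested on simulated data. The number of arrays limits the precision. The members, lists and tests were chosen with earlier results of these data known. Named genes are the passing usable names (up to 12 in each direction on chromosome 2 and 10 elsewhere), the 5 nearest usable names on either side of the marker, up to 3 passing members a list, the trait genes of chromosome 2 and the 3 names most correlated with the marker on and off chromosome 2. Genes without a usable name, the probe sets without a gene, NAAT1, TAC1 and single lines were picked after their values were seen. The parents share replicate numbers, but deviations of same-numbered parent arrays correlated at -0.31, -0.066 and -0.39, so the numbers were not taken as pairs.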

Additional observations from a re-analysis of the deposited data

How the results depend on the processing

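Of the 67 passing probe sets outside the marker gene, none changed sign in the other settings. In each setting that tested them 20 passed, 7 of these in all 21 and 13 in 20, since their mean was under 7. The call was lost by 45 where single replicates were used and by 21 in at least 1 other setting. The settings that left out 1 parent array moved only the cut, inside the gap between the line groups. They repeated the main fit, so their outcome was fixed in advance. The count of 37 on chromosome 2 lay between 30 and 39 in several settings. These were each array centred on its median, the marker as a continuous measure and the other chromosomes' markers as covariates. Others left out 1 line of each near-identical pair, lines matching another line best, or lines with an intermediate mean. That last setting removed only RIL145 (mean 6.91), and the other lines with 1 intermediate array stayed in. With replicate 1, replicate 2 or a parent array left out, counts ran from 20 to 39 on chromosome 2, 13 to 28 within 400 genes, 20 to 31 without a single gene and stayed at 2 on other chromosomes. With no filter on the mean, 65 passed on chromosome 2, 46 within 400 genes and 80 without a single gene; with a mean of at least 7, 6 without a single gene and 0 on other chromosomes. Split by replicate 1 and tested in replicate 2, 16, 13 and 14 passed on chromosome 2, within 400 genes and without a single gene; the reverse gave 39 on chromosome 2. With a log2 difference of at least 0.5 required as well (added after the data were seen), 10 passed on chromosome 2, 7 within 400 genes and 13 without a single gene.

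In a fit of all arrays with the replicate number as a block and lines as a random effect, 106 passed, including all 69, with 51 on chromosome 2, 5 on other chromosomes and 50 without a single gene; without the replicate block 108 passed, 64 of them among the 69, with 52, 8 and 48. The parental count of 229 on chromosome 2 was 56 with a replicate block, 96 with line arrays in the fit and 65 to 241 with 1 parent array left out. The causes were not tested.

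Some differences that did not pass changed sign. Without replicate 1 and without replicate 2, OEP75 was -0.0023 and 0.073, GW2 0.038 and -0.071, GL2 0.011 and -0.047, and PIP1;1 0.020 and -0.015. Split by replicate 1, HMA4 was -0.0027, OEP75 -0.016, CASPL2D1 0.0065, GW2 0.042 and GL2 0.0041; split by replicate 2, PIP1;1 was -0.012. GL2 was 0.0035 without near-identical lines and 0.00017 without lines matching another line best. No probe-level intensities were used, so signal over background limits only what the tag controls show: levels near 4.63 or below cannot be told from background.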
